A study of Mus musculus with 21 samples.

Results

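The genes described here are receptors for the myeloid colony-stimulating factors and the transcription factors that act with them: Csf1r, Csf2ra, Csf2rb, Csf2rb2, Csf3r, Cebpa, Cebpb, Cebpd, Cebpe and Gfi1. They were chosen by name, as the rows of the expression table that carry these symbols, and 9 of the 10 were matched among 11628 genes. Cebpe, which acts late in granulocyte maturation, matched no row and is not analysed here. All 9 matched genes reached 1 RPKM (a read count scaled to transcript length and library size) in at least 3 libraries and were tested with 11496 genes in all.

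RNA was sequenced from 3 progenitor populations sorted from mouse bone marrow. The mice were either wild type or carried a mutated Etv6 on both alleles (genotype label ETV6 mt/mt, written h.P214L in the description). Etv6 is a transcriptional repressor of the ETS family, and the mutation is germline, so every cell of a mutant mouse carried it. All sorted cells lacked lineage markers. Haematopoietic stem cells (HSC) were cKit+ Sca1+ FLK2-neg CD150+ CD38-neg, lymphoid-biased multipotent progenitors (MPP4) were cKit+ Sca1+ FLK2+, and common lymphoid progenitors (CLP) were IL7+ Flk2+ with low cKit and low Sca1. With 3 wild-type and 4 mutant libraries in each population, there were 21 libraries, from mice of 10 or 12 weeks and both sexes. P-values measure the spread between these libraries. In sorted bulk RNA, fewer cells of a type and less RNA per cell cannot be told apart.

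Csf1r, Csf3r and the receptor complexes of granulocyte-macrophage colony-stimulating factor (GM-CSF) sit on the surface of progenitors and myeloid cells and signal for survival, division and maturation. Factors of the C/EBP family bind DNA as dimers and switch on myeloid genes, receptors among them, with Cebpa acting at the branch from multipotent to granulocyte-monocyte progenitors. Gfi1 is a zinc-finger repressor that favours granulocytes over monocytes and is also used in lymphoid progenitors and stem cells.

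The promoters of Csf3r and Cebpa are shown because both genes were highest in MPP4, and because each holds a C/EBP half-site. Capitals mark that half-site (TTGCG, or CGCAA on the other strand) and the ETS core (GGAAG, or CTTCC on the other strand), searched on both strands and not overlapping each other here. The sequences are the 250 bases before a RefSeq start, build GRCm38.p6, plus strand, at chr4:126024409-126024658 and chr7:35119043-35119292. The Csf3r window lies inside the gene interval, which begins at 126023441, so it is not upstream of the first base of the gene.
Csf3r promoter: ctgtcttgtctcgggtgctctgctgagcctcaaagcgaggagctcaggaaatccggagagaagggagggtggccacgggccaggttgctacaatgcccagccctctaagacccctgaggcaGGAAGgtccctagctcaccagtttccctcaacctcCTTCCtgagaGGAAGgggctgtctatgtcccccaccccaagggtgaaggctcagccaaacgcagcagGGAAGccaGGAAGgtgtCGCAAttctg
Cebpa promoter: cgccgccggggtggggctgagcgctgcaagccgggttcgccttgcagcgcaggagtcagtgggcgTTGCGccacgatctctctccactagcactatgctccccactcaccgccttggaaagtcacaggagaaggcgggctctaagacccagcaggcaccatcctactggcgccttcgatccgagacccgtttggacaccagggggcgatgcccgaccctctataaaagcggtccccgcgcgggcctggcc
The half-site was found in 14.5% of 32851 promoter windows of this length and the ETS core in 64.1%. Csf3r held 5 ETS cores, and Cebpa held 0. The count of 5 was the highest among the 7 windows searched for these genes, not a number set in advance. It was reached by 317 of all windows (0.965%). Of the other 4 genes whose promoters were searched, Csf2ra held 3 ETS cores, Csf2rb2 and Cebpb held 1 each, and Gfi1 held 0 and 1 at its 2 starts. None of these 4 held the half-site. Promoters of Csf1r, Csf2rb and Cebpd were not searched, so the motif counts do not cover every gene described here. The motifs were chosen after the promoters were seen, and a match is a description of letters, not of binding.

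The libraries had summed RPKM between 337818 and 376135, a median gene between 12.0 and 13.6 RPKM, and pairwise correlations within groups of 0.968 to 0.990. Sequencing depth is unknown, because RPKM keeps no counts. Markers of the gates differed between populations. Wild-type means of Slamf1, which encodes CD150, were 22.6 RPKM in HSC and 0.849 RPKM in MPP4. Those of Il7r were 1.06 RPKM in HSC and 91.3 RPKM in CLP. Cd38 RNA went against the CD38-neg label of the HSC gate. Its wild-type mean was highest in HSC, 8.39 RPKM, beside 1.67 RPKM in MPP4 and 5.05 RPKM in CLP. Cd48, which the label does not name, was low in HSC, with wild-type means of 4.71 RPKM there, 169 RPKM in MPP4 and 164 RPKM in CLP. Whether the label names the marker used in the sort was not tested. Granule genes of neutrophils (15 of 27 listed genes in the table) had their highest sums in 4 libraries. Their summed level was over 1500 RPKM in wild-type HSC library 2 (1709), mutant MPP4 library 2 (2703) and mutant CLP libraries 2 (1902) and 4 (2471). By the mean log2(RPKM + 1) of the list, the last 3 of these were also highest (6.28, 5.74 and 6.04). Wild-type HSC library 2 (5.14) was not. It lay below wild-type MPP4 library 1 (5.58) and mutant MPP4 libraries 3 (5.47) and 4 (5.67), which were kept. The 4 granule-rich libraries did not stand apart by granule genes alone. In the order given, 16 erythroid genes summed to 5118, 5027, 2922 and 5037 RPKM in them, and 7 eosinophil genes to 113, 377, 1004 and 1054 RPKM. Mutant HSC library 2 (3942 RPKM of erythroid genes) and mutant MPP4 library 3 (2532 RPKM of eosinophil genes) were kept. Every comparison of the 9 genes was also computed without the 4 granule-rich libraries, a check added after the data were seen. Of 108 values, 3 calls were lost and 3 gained, each given with its gene, and 16 uncalled values changed sign.

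**Figure D1:**
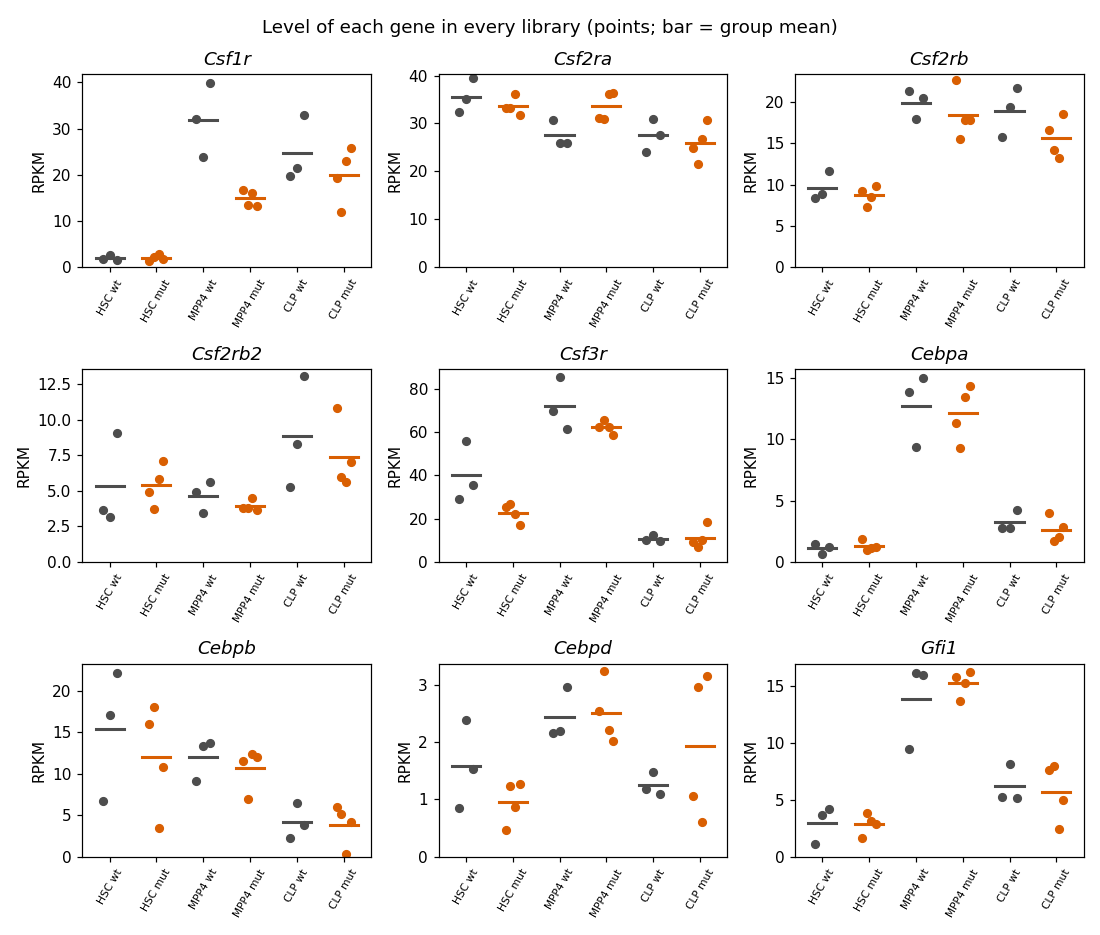
RPKM of each of the 9 genes (y axes, linear, starting at 0) in every library, by population and genotype on the x axes. Points are libraries and horizontal bars are group means. Csf3r, Cebpa and Gfi1 stand highest in MPP4, Csf1r and Csf2rb are low in HSC, and Cebpb is lowest in CLP.

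Gene positions are those of RefSeq, build GRCm38.p6, and all 9 genes are protein-coding. Csf1r (Entrez 12978, chromosome 18, 61105572 to 61131139), the receptor for M-CSF and interleukin 34 and a marker of the monocyte and macrophage lineage, was low in HSC and rose in MPP4 (ratio of wild-type means 16.1). Its wild-type HSC libraries read 1.69, 2.66 and 1.60 RPKM, and the wild-type MPP4 libraries 32.0, 23.8 and 39.9 RPKM. The wild-type CLP libraries read 19.7, 21.5 and 32.8 RPKM. The ranges of HSC and MPP4 and of HSC and CLP did not overlap, while those of MPP4 and CLP did. On the scale of log2(RPKM + 1), MPP4 exceeded HSC by 3.45 ± 0.25 (SE; limma with Benjamini-Hochberg adjustment, adjusted p = 1.07e-09), and CLP exceeded HSC by 3.09 (adjusted p = 2.07e-09). The difference of CLP from MPP4 was -0.36 (95% interval -0.88 to 0.15, adjusted p = 0.412).

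Csf3r (Entrez 12986, chromosome 4, 126023441 to 126044975), the receptor for G-CSF and the driver of neutrophil production, was the most abundant of the 9 genes in MPP4, and the order of the populations was MPP4, HSC, CLP. Wild-type HSC libraries read 29.1, 55.7 and 35.5 RPKM. Wild-type MPP4 libraries read 69.9, 85.3 and 61.5 RPKM. The wild-type CLP libraries read 10.3, 12.4 and 9.77 RPKM. No range overlapped another. Csf3r rose in MPP4 over HSC (ratio of means 1.80, log2 difference 0.87, limma adjusted p = 0.00968), and by 1.13 with the granule-rich libraries left out (adjusted p = 8.12e-05). In CLP it fell by 2.63 ± 0.25 against MPP4 (SE; limma adjusted p = 4.15e-07), and it fell by 1.75 against HSC (adjusted p = 8.53e-06). The rise over HSC was not called without wild-type HSC library 1 (0.68, adjusted p = 0.0601) or without wild-type MPP4 library 2 (0.75, adjusted p = 0.0509).

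The ratio of Csf3r to Csf1r in wild-type libraries ran from 17.2 to 22.2 in HSC, from 1.54 to 3.58 in MPP4 and from 0.298 to 0.577 in CLP. These ranges did not overlap. The ratio was chosen after the levels were seen and has no test.

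Csf2ra (Entrez 12982, chromosome 19, 61217191 to 61228461) encodes the GM-CSF-binding alpha chain. It was the most abundant of the 9 genes on average in CLP, and its wild-type mean was highest in HSC. The wild-type libraries read 32.3, 35.1 and 39.4 RPKM in HSC, 30.7, 26.0 and 26.0 RPKM in MPP4, and 24.0, 30.9 and 27.7 RPKM in CLP. Csf2ra fell by 0.36 in MPP4 against HSC (limma adjusted p = 0.0206) and by 0.36 in CLP against HSC (adjusted p = 0.0146). The median of all genes in that second comparison was -0.10 as deposited. With median-ratio scaling, which brought it to 0.00, the Csf2ra difference was -0.25 and not called (adjusted p = 0.0701). The first call was lost without wild-type HSC library 3 (-0.29, adjusted p = 0.101) or without wild-type MPP4 library 2 (-0.32, adjusted p = 0.0754) or 3 (-0.32, adjusted p = 0.0761). The second was lost without wild-type HSC library 3 (-0.29, adjusted p = 0.0747) or wild-type CLP library 1 (-0.27, adjusted p = 0.0896).

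Csf2rb, the signalling beta chain shared by the receptors for GM-CSF, interleukin 3 and interleukin 5, was higher outside the stem cell gate. Its wild-type libraries read 8.37, 8.79 and 11.6 RPKM in HSC, 21.3, 17.9 and 20.5 RPKM in MPP4, and 15.7, 19.4 and 21.7 RPKM in CLP. HSC lay below the other 2 populations without overlap. Csf2rb rose by 0.99 ± 0.15 in MPP4 over HSC (SE; limma adjusted p = 3.54e-05) and by 0.91 in CLP over HSC (adjusted p = 5.07e-05). Its alpha chain exceeded it 3.40 to 3.99 times in wild-type HSC and 1.27 to 1.46 times in wild-type MPP4, ranges that did not overlap.

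Csf2rb2, the mouse beta chain used with the interleukin 3 receptor only, was lower than Csf2rb in all 21 libraries. The wild-type libraries read 3.66, 3.16 and 9.07 RPKM in HSC, 4.93, 3.40 and 5.59 RPKM in MPP4, and 5.25, 8.29 and 13.1 RPKM in CLP. None of its 3 wild-type comparisons was called. The difference of CLP from HSC was 0.69 (95% interval 0.04 to 1.33, limma adjusted p = 0.0691). Csf2rb2 was called higher there in 9 of 19 alternatives. They were quantile normalization (0.97, adjusted p = 0.0130), median-ratio scaling (0.78, adjusted p = 0.0382), library weights (1.04, adjusted p = 0.00384), both replicate blocks (adjusted p = 0.0441 and 0.0324), a sex term (adjusted p = 0.0494), sex and age terms (adjusted p = 0.0434), and the fits without wild-type HSC library 3 (1.09, adjusted p = 0.00433) or CLP library 1 (0.98, adjusted p = 0.0173).

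The 2 beta chain genes are neighbours on chromosome 15 (Csf2rb at 78325800 to 78351001, Csf2rb2 at 78282507 to 78305721, GRCm38.p6). Their longest open reading frames were identical at 2505 of 2631 aligned bases (95.2%), and 892 of 4851 windows of 50 bases in the Csf2rb transcript (18.4%) also occurred in Csf2rb2. The sources used here do not state how reads from such shared stretches were counted, so the split between the genes is uncertain. Within groups the 2 genes moved together over the 21 libraries (r = 0.73 of the deviations from group means).

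Cebpa (Entrez 12606, chromosome 7, 35119293 to 35121928), the factor of the granulocyte-monocyte branch, was near 1 RPKM in HSC and rose in MPP4 (ratio of wild-type means 11.6). Wild-type HSC libraries read 1.45, 0.636 and 1.22 RPKM. Wild-type MPP4 libraries read 13.8, 9.39 and 15.03 RPKM, and wild-type CLP libraries 2.76, 2.80 and 4.27 RPKM. The 3 ranges did not overlap. Cebpa rose by 2.71 ± 0.23 from HSC to MPP4 (SE; limma adjusted p = 1.55e-08) and fell by 1.68 from MPP4 to CLP (adjusted p = 3.89e-05). In CLP it was still higher than in HSC, by 1.03 (adjusted p = 0.00106).

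Gfi1 (Entrez 14581, chromosome 5, 107716655 to 107725805) had the same order of populations as Cebpa. Its wild-type libraries read 1.11, 3.64 and 4.17 RPKM in HSC, 9.45, 16.1 and 15.9 RPKM in MPP4, and 5.26, 8.16 and 5.13 RPKM in CLP. These ranges did not overlap. Gfi1 rose by 1.97 ± 0.34 from HSC to MPP4 (SE; limma adjusted p = 0.000111). The fall from MPP4 to CLP, 1.03, was at the edge of the threshold (adjusted p = 0.0497) and was not called without wild-type MPP4 library 2 (-0.91, adjusted p = 0.168) or 3 (-0.92, adjusted p = 0.156) or wild-type CLP library 1 (-0.95, adjusted p = 0.137) or 3 (-0.93, adjusted p = 0.147), nor with the granule-rich libraries left out (adjusted p = 0.0652). It was also not called with a pseudocount of 0.1 (adjusted p = 0.0980) or 0.5 (adjusted p = 0.0693), with no filter on low values (adjusted p = 0.0502), or with quantile normalization (adjusted p = 0.0682) or median-ratio scaling (adjusted p = 0.0646). In all, Gfi1 was called lower in 9 of 19 alternatives. No granule-rich library was wild-type MPP4 or CLP, so leaving those libraries out kept the difference at -1.03. In CLP against HSC Gfi1 rose by 0.93 (limma adjusted p = 0.0274). This rise was not called without wild-type HSC library 1 (0.53, adjusted p = 0.198) or CLP library 2 (0.74, adjusted p = 0.117), nor with only the groups compared (0.93, adjusted p = 0.0515).

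Cebpb (Entrez 12608, chromosome 2, 167688915 to 167690432), induced by inflammatory signals and needed for emergency granulopoiesis, was low in CLP and spread widely between libraries of 1 group. The wild-type libraries read 6.68, 17.1 and 22.2 RPKM in HSC, 9.10, 13.4 and 13.7 RPKM in MPP4, and 2.22, 6.52 and 3.77 RPKM in CLP. CLP lay below both other populations without overlap. Cebpb fell by 1.60 ± 0.57 in CLP against HSC (SE; limma adjusted p = 0.0233). The fall was not called without any of wild-type HSC library 2 (-1.45, adjusted p = 0.0713), HSC library 3 (-1.28, adjusted p = 0.106), CLP library 1 (-1.30, adjusted p = 0.10005) and CLP library 3 (-1.59, adjusted p = 0.0516), nor with a pseudocount of 0.1 (-1.82, adjusted p = 0.0616) or with the granule-rich libraries left out (-1.45, adjusted p = 0.0794). The difference of CLP from MPP4, -1.40, was not called (adjusted p = 0.122), nor was that of MPP4 from HSC, -0.20 (95% interval -1.38 to 0.98, adjusted p = 0.809).

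Cebpd (Entrez 12609, chromosome 16, 15887286 to 15889545), another C/EBP factor with roles in inflammatory and myeloid gene induction, was low in all groups, with wild-type means of 1.59 ± 0.771 RPKM in HSC, 2.44 ± 0.453 RPKM in MPP4 and 1.25 ± 0.204 RPKM in CLP (SD, n = 3 each). No wild-type comparison of Cebpd was called. In the mutant it rose by 0.85 in MPP4 over HSC (limma adjusted p = 0.0123), a call that also held with the granule-rich libraries left out. Wild-type HSC library 2, 1 of the 4 granule-rich libraries, held 2.39 RPKM against 0.847 and 1.53 RPKM in the others. With the 4 granule-rich libraries left out, MPP4 exceeded HSC in wild type by 0.66 (limma adjusted p = 0.0212). CLP lay below MPP4 by 0.85 in the mutant (-0.85, adjusted p = 0.00969) and by 0.61 in wild type (-0.61, adjusted p = 0.0430). That wild-type difference was also -0.61 with all libraries (limma adjusted p = 0.213). None of the 4 libraries was wild-type MPP4 or CLP, so no value of that comparison was removed. It was also called with only the groups compared (-0.61, limma adjusted p = 0.0473). Quantile normalization with all libraries called Cebpd higher in wild-type MPP4 than HSC (0.72, adjusted p = 0.0346). It also called Cebpd higher in mutant CLP than HSC (1.02, adjusted p = 0.000667), as did the fit without mutant CLP library 3 (0.74, adjusted p = 0.0122). The main fit did not (0.49, adjusted p = 0.110).

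**Figure D2:**
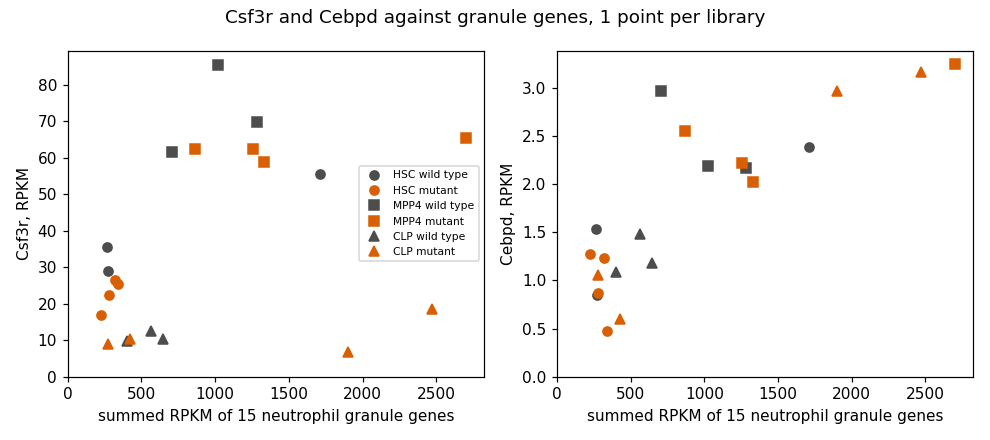
RPKM of Csf3r (left, y axis) and Cebpd (right, y axis) against the summed RPKM of 15 neutrophil granule genes (x axes), 1 point per library, shaped by population and coloured by genotype. The highest granule sums are 2703, 2471, 1902 and 1709 RPKM, and 3 of those 4 libraries hold Cebpd between 2.96 and 3.24 RPKM, a range that 1 wild-type MPP4 library also reaches.

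Between populations, 6 of the 9 genes were called in wild-type MPP4 against HSC, 5 higher (Csf1r, Csf2rb, Csf3r, Cebpa and Gfi1) and 1 lower (Csf2ra), beside 39.3% of all tested genes called, 16.1% higher and 23.3% lower. In CLP against MPP4, 3 of the 9 were called, all lower (Csf3r, Cebpa and Gfi1), beside 13.1% of all genes called and 8.38% called lower. For CLP against HSC the count was 7 of 9, 4 higher and 3 lower, beside 51.1% of all genes, 19.4% higher and 31.7% lower. These comparisons share libraries, so their counts are not independent. In the mutant, 6 of the 9 genes were called in MPP4 against HSC, all higher, beside 39.1% of all genes called and 16% called higher. The 5 called in CLP against MPP4 were lower (Csf2ra, Csf3r, Cebpa, Cebpb and Gfi1), beside 24.3% of all genes called and 16.4% called lower. Among them Csf2ra was not called without mutant CLP library 2 (-0.29, adjusted p = 0.0524). Cebpb was not called without mutant MPP4 library 1 (-1.45, adjusted p = 0.0637), 3 (-1.42, adjusted p = 0.0743) or 4 (-1.43, adjusted p = 0.0719), or mutant CLP library 3 (-0.93, adjusted p = 0.132). Quantile normalization also lost the Cebpb call (-1.28, limma adjusted p = 0.0676). In CLP against HSC 7 were called, 4 higher and 3 lower, beside 57.8% of all genes, 21.8% higher and 36% lower. Of these, Gfi1 was not called in 8 of 21 alternatives, with values from 0.52 (adjusted p = 0.257, granule-rich libraries left out) to 0.78. The other 7 were the fit of only the groups compared (adjusted p = 0.0570) and those without mutant HSC library 1 (adjusted p = 0.128), 3 (adjusted p = 0.0507) or 4 (adjusted p = 0.0610) or mutant CLP library 1 (adjusted p = 0.119), 2 (adjusted p = 0.1295) or 4 (adjusted p = 0.0527). Cebpb was not called without mutant HSC library 2 (-1.24, adjusted p = 0.0509) or mutant CLP library 3 (-0.93, adjusted p = 0.0692), and Cebpa was not called without mutant CLP library 1 (0.48, adjusted p = 0.0520). Cebpd was called in mutant MPP4 against HSC and Csf2ra was not. Whether the genotypes differ in these steps was tested directly, as the difference of the mutant effect between populations given with the genotype results, and 0 of 9 genes were called.

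**Figure D3:**
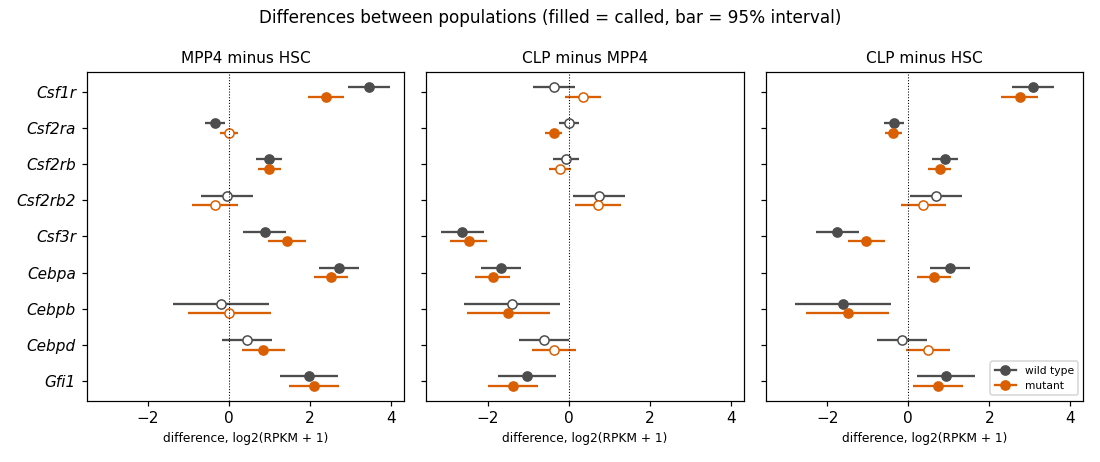
Differences between populations on the log2(RPKM + 1) scale (x axes, with 95% intervals as bars) for the 9 genes (y axis), wild type in grey and mutant in orange. Filled points were called at an adjusted p under 0.05. In CLP minus MPP4, Csf3r and Cebpa are called lower in both genotypes.

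In the mutant the steps had these sizes. From HSC to MPP4, Csf1r rose by 2.39 ± 0.21 (SE; limma adjusted p = 2.34e-08), beside 3.45 in wild type. Csf3r rose by 1.43 ± 0.22 (adjusted p = 2.86e-05), beside 0.87 in wild type, and Cebpa rose by 2.52 ± 0.20 (adjusted p = 5.12e-09), beside 2.71. From MPP4 to CLP, Csf3r fell by 2.47 ± 0.22 (adjusted p = 5.25e-08), Cebpa fell by 1.88 ± 0.20 (adjusted p = 6.98e-07) and Gfi1 fell by 1.37 ± 0.29 (adjusted p = 0.00156). With the granule-rich libraries left out these mutant falls were -2.54, -1.85 and -1.63, all called. The mutant difference of Csf1r in CLP from MPP4 was 0.36 (95% interval -0.09 to 0.81, adjusted p = 0.247). It was called without mutant CLP library 2 (0.57, adjusted p = 0.0477).

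The lists of related genes are read against all tested genes, of which 16.1% were called higher and 23.3% lower in wild-type MPP4 against HSC, and 4.77% higher and 8.38% lower in wild-type CLP against MPP4. Of 17 related cytokine receptors tested, 9 rose and 5 fell in wild-type MPP4 against HSC, with a list median of 0.60 beside -0.06 for all genes. Flt3, the receptor of FLT3 ligand, was 14.9 ± 1.91 RPKM in HSC and 384 ± 33.4 RPKM in MPP4 (SD, n = 3 each), and is itself a marker of the gates. In CLP against MPP4, 3 of the 17 rose and 6 fell. Il6st, the signal-transducing chain of interleukin 6 receptors, rose from 19.0 ± 3.41 to 45.5 ± 4.30 RPKM, and Kit, the stem cell factor receptor, fell from 151 ± 19.9 to 39.9 ± 7.96 RPKM. Ligand genes matched 2 rows: Flt3l was 16.3 RPKM in HSC, 4.40 RPKM in MPP4 and 1.37 RPKM in CLP, and Csf1 was 3.35, 1.64 and 1.18 RPKM.

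Of 30 genes of the signalling chain, 6 rose and 10 fell in wild-type MPP4 against HSC, with a list median of -0.13 beside -0.06, and these shares (20% and 33.3%) were near those of all genes (16.1% and 23.3%). Stat5a, a transcription factor activated by these receptors, fell from 43.8 ± 1.65 to 20.4 ± 2.32 RPKM, and Inpp5d, the lipid phosphatase SHIP1, rose from 63.0 ± 3.59 to 103 ± 4.80 RPKM. In CLP against MPP4, 8 rose and 2 fell, and Socs2, a feedback inhibitor of cytokine signalling, rose from 2.34 ± 0.969 to 13.4 ± 4.63 RPKM. Jak3, the kinase paired with the common gamma chain, fell from 52.1 ± 4.14 to 34.4 ± 0.954 RPKM.

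Among 26 myeloid and progenitor transcription factors, 7 rose and 9 fell in wild-type MPP4 against HSC, with a list median of -0.32 beside -0.06. Irf8, which directs monocyte and dendritic cell fates, rose from 2.24 ± 0.332 to 48.8 ± 2.46 RPKM, and Spi1 (PU.1) rose from 69.6 ± 4.06 to 130 ± 14.8 RPKM. Gata2, a stem and mast cell factor, fell from 158 ± 5.01 to 14.3 ± 4.12 RPKM. In CLP against MPP4, 4 rose and 6 fell: Irf8 rose further to 178 ± 38.7 RPKM while Spi1 fell to 86.3 ± 2.86 RPKM. Of 11 corepressor genes of the Gfi1 complexes, 1 rose (Suv39h1, a histone methyltransferase, 29.0 ± 5.65 to 47.5 ± 1.39 RPKM) and 1 fell (Rcor3, 6.58 ± 0.129 to 2.96 ± 0.273 RPKM) from HSC to MPP4. Rcor3 also fell from MPP4 to CLP, to 1.88 ± 0.269 RPKM, as the 1 called of 11.

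Of 15 neutrophil granule genes, 4 rose and 0 fell in wild-type MPP4 against HSC, with a list median of 0.12 beside -0.06, where 39.3% of all genes were called. Among the 4 were Mpo, the myeloperoxidase, from 3.51 ± 0.791 to 467 ± 74.3 RPKM, and Ctsg, a granule protease, from 0.197 ± 0.250 to 67.4 ± 20.9 RPKM. In CLP against MPP4, where 13.1% of all genes were called, 3 of the 15 fell, among them the protease gene Prtn3, from 112 ± 19.6 to 7.91 ± 2.46 RPKM. Of 22 monocyte and macrophage genes, 11 rose and 1 fell from HSC to MPP4, with a list median of 0.51 beside -0.06, and 4 rose and 4 fell from MPP4 to CLP. Cx3cr1, the fractalkine receptor, was 0.182 ± 0.161 RPKM in HSC, 4.41 ± 1.11 RPKM in MPP4 and 12.0 ± 2.57 RPKM in CLP. Summed, the monocyte list was 650 to 885 RPKM in wild-type HSC, 889 to 1052 RPKM in MPP4 and 811 to 1079 RPKM in CLP. The part of such cells in the receptor and Cebp differences was not tested.

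By Pearson correlation over the 21 libraries on the log2(RPKM + 1) scale, where the points are libraries that share 6 groups, the genes most like Csf1r were Cd300lb (r = 0.977), Tm6sf1 (r = 0.973) and Parp8 (r = 0.969). Those most like Csf3r were Mmp2 (r = 0.926), P2ry2 (r = 0.923) and Faah (r = 0.921). Cebpa was most like Spint1 (r = 0.962), Spi1 (r = 0.959) and Vav3 (r = 0.937). Gfi1 was most like Ckap4 (r = 0.915), Lrp5 (r = 0.901) and Il6ra (r = 0.896). The best matches of Csf2rb were Phf14 (r = 0.939), 9930111J21Rik1 and Slc43a2 (r = 0.936 each), those of Cebpb Kif13a (r = 0.944), Spred1 (r = 0.941) and Dennd5a (r = 0.938). For Csf2ra the best match was Spic (r = 0.886), for Csf2rb2 Tpd52 (r = 0.855), Ctsb (r = 0.845) and 9330133O14Rik (r = 0.844), and for Cebpd Rassf3 (r = 0.788), Ffar2 (r = 0.778) and Mboat7 (r = 0.775).

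Between genotypes, 0 of the 9 genes were called in HSC, MPP4 or CLP by limma, beside 0.0522%, 0.217% and 0% of all genes. At an unadjusted p under 0.05, 1 gene passed in HSC (Csf3r), 2 in MPP4 (Csf1r and Csf2ra) and 0 in CLP, beside 4.45%, 8.14% and 4.41% of all genes. The same genes were the ones whose genotypes did not overlap: 1 of 9 in HSC beside 5.25% of all genes, 2 of 9 in MPP4 beside 10.1%, and 0 of 9 in CLP beside 4.12%.

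The largest genotype difference among the 9 genes was that of Csf1r in MPP4. Mutant MPP4 libraries read 16.7, 13.5, 16.1 and 13.3 RPKM against 32.0, 23.8 and 39.9 RPKM in wild type, so every mutant library lay below every wild-type library, as for 3.41% of all genes. The ratio of means was 0.467 and the log2 difference -1.03 ± 0.23 (SE, 95% interval -1.51 to -0.54). The unadjusted p was 2.64e-04 and the limma adjusted p was 0.0740, which misses the threshold, and the exact two-sided permutation p was 0.0286, the smallest that 35 splits allow. Over 20 alternatives the difference stayed between -1.21 and -0.86 and its adjusted p between 0.0107 and 0.557. It was called with library weights (adjusted p = 0.0107), a sex term (adjusted p = 0.0481) and sex and age terms (adjusted p = 0.0323).

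In the other populations the genotypes overlapped for Csf1r. Mutant HSC libraries read 1.43, 2.19, 2.92 and 1.75 RPKM, and mutant CLP libraries 19.4, 12.0, 22.9 and 25.8 RPKM. The log2 difference was 0.04 in HSC (95% interval -0.45 to 0.52) and -0.30 in CLP (95% interval -0.79 to 0.18). The genotype effect in MPP4 differed from that in HSC by -1.06 (limma unadjusted p = 0.00407, limma adjusted p = 0.881) and the effect in CLP from that in MPP4 by 0.72 (limma unadjusted p = 0.0393, adjusted p = 0.998), so neither difference passed the adjusted threshold. Counts of members called for these differences of effect were 0 of 9 in each of 3 tests, beside 0%, 0% and 0.0087% of all genes, and 2, 2 and 1 passed an unadjusted p under 0.05, beside 3.79%, 3.84% and 3.65% of all genes.

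Other genes of the lists are given here for mutant against wild-type MPP4, where 0.217% of all genes were called. Of 14 megakaryocyte genes, 2 were called higher, and of 17 related cytokine receptors, 1 was called higher. Summed, the megakaryocyte list overlapped between genotypes, 113 to 482 RPKM in mutant and 59.2 to 254 RPKM in wild type. Mutant library 1 held the 482 RPKM, and the other mutant libraries 113 to 133 RPKM. Irf8 was the 1 called of 26 transcription factors, 28.2 ± 4.89 RPKM in mutant (n = 4) and 48.8 ± 2.46 RPKM in wild type (SD, n = 3). None of 22 monocyte and macrophage genes was called, and their summed level was 947 to 1160 RPKM in mutant and 889 to 1052 RPKM in wild type. The most abundant of them, Lyz2 and Psap, were 324 ± 92.3 against 244 ± 13.3 RPKM and 208 ± 25.3 against 214 ± 23.5 RPKM. In the plasmacytoid dendritic cell list, 2 of 14 genes fell, Cox6a2 (10.2 ± 4.02 against 33.8 ± 9.08 RPKM) and Unc93b1 (73.0 ± 5.48 against 103 ± 8.45 RPKM). Of 16 B-lineage genes, 2 fell, Blk (1.38 ± 0.377 against 4.57 ± 1.80 RPKM) and Blnk (9.95 ± 1.44 against 22.4 ± 9.16 RPKM). The summed levels of these lists overlapped between genotypes for the dendritic list (292 to 367 against 334 to 407 RPKM) and the B-lineage list (222 to 277 against 208 to 268 RPKM). Erythroid genes (16 in the table, 0 called) summed to 2287 to 5027 RPKM in mutant MPP4 and 506 to 3030 RPKM in wild type, and 2 of 4 mutant libraries lay above every wild-type one. The mean log2(RPKM + 1) of the list did not overlap, 4.39 to 5.18 against 2.68 to 3.79, and all 16 differences were positive, with a median of 1.45 beside 0.02 for all genes. The part of these cell types in the Csf1r difference was not tested. Without mutant MPP4 library 2, the granule-rich one, Csf1r differed by -0.98 (adjusted p = 0.0985 with all 4 granule-rich libraries left out).

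In HSC it was Csf3r whose genotypes did not overlap. Mutant libraries read 25.3, 26.6, 22.3 and 16.8 RPKM, against 29.1, 55.7 and 35.5 RPKM in wild type, so every mutant library lay below every wild-type one, as for 1.9% of all genes. The ratio of means was 0.568 and the log2 difference -0.76 ± 0.24 (SE, 95% interval -1.26 to -0.26), with limma adjusted p = 0.781 and an exact permutation p of 0.0286. Wild-type library 2 had the highest Csf3r and the high granule sum of 1709 RPKM, against 268 and 270 RPKM in the other wild-type HSC libraries and 224 to 342 RPKM in the mutant ones. Without that library the difference was -0.50 (limma adjusted p = 0.997). In MPP4 and CLP the Csf3r ranges of the genotypes overlapped, with log2 differences of -0.20 (95% interval -0.70 to 0.30) and -0.04 (-0.54 to 0.46).

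Csf2ra in MPP4 went the other way and was higher in every mutant library (31.2, 31.0, 36.1 and 36.3 RPKM) than in every wild-type library (30.7, 26.0 and 26.0 RPKM), as for 6.68% of all genes. The ratio of means was 1.22 and the log2 difference 0.28 ± 0.11 (SE, 95% interval 0.05 to 0.51), with a limma p of 0.0201, an adjusted p of 0.472 and an exact permutation p of 0.0286. The lowest mutant and highest wild-type libraries were close to each other. Over 20 alternatives it lay between 0.24 and 0.36 and was called in 0. With the granule-rich libraries left out it was 0.32 (adjusted p = 0.400).

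The other 6 genes overlapped between genotypes in all 3 populations. Mutant Csf2rb ranged from 7.30 to 9.77 RPKM in HSC, from 15.4 to 22.6 RPKM in MPP4 and from 13.3 to 18.6 RPKM in CLP. Mutant Csf2rb2 ranged from 3.74 to 7.06, from 3.66 to 4.49 and from 5.61 to 10.8 RPKM in the same populations. Mutant Cebpb ranged from 3.49 to 18.0 RPKM in HSC and from 0.267 to 5.997 RPKM in CLP, and its lowest library lay below every wild-type CLP library. The widest intervals of these genes were those of Cebpb, for which the 95% interval of the log2 difference ran from -1.48 to 0.74 in HSC and from -1.27 to 0.94 in MPP4, and those intervals reach below -1. Narrower were the intervals of Csf2rb, from -0.42 to 0.18 in HSC, -0.42 to 0.19 in MPP4 and -0.56 to 0.05 in CLP. Cebpa, whose mutant libraries read 11.3, 9.30, 13.5 and 14.4 RPKM in MPP4, differed there by -0.06 (95% interval -0.52 to 0.40), and by 0.05 with the granule-rich libraries left out. For Gfi1 in MPP4 the mutant libraries read 15.7, 13.6, 15.2 and 16.2 RPKM and the difference was 0.16 (95% interval -0.50 to 0.82). In mutant CLP, Cebpd read 2.96 and 3.16 RPKM in libraries 2 and 4, the granule-rich ones, and 1.05 and 0.598 RPKM in libraries 1 and 3. The Cebpd difference was 0.27 (95% interval -0.30 to 0.85), and with the granule-rich libraries left out it had the other sign, -0.31 (limma adjusted p = 0.9998). Neither value was called.

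**Figure D4:**
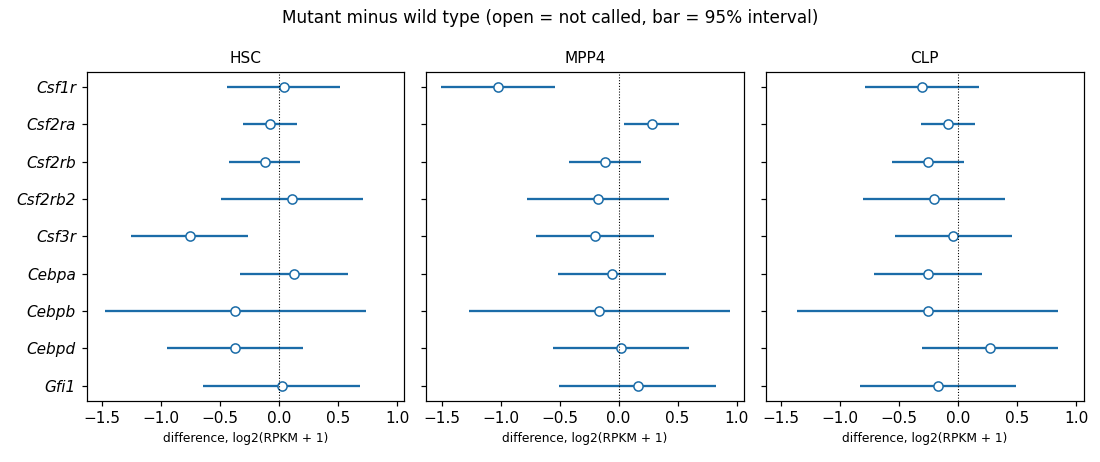
Mutant minus wild type on the log2(RPKM + 1) scale (x axes, bars are 95% intervals) for each of the 9 genes (y axis) in HSC, MPP4 and CLP. All points are open, since none was called at an adjusted p under 0.05. The intervals of Csf3r in HSC and of Csf1r and Csf2ra in MPP4 do not include 0.

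Across the mutant libraries, the balance of receptors kept the order of populations. The ratio of Csf3r to Csf1r ran from 7.65 to 17.7 in HSC, from 3.75 to 4.86 in MPP4 and from 0.450 to 0.720 in CLP. In MPP4 the mutant range lay above that of wild type, which ended at 3.58. Csf1r, the denominator, did not overlap between genotypes there and was not called, while Csf3r overlapped, so the ratio is not a separate result. It was chosen after the levels were seen, has no test and was not set against other gene pairs.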

How the data were processed

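The authors deposited 1 table of RPKM values for 11628 genes in 21 libraries. Per the labels' protocols, cells were sorted into lysis buffer, polyadenylated RNA was amplified with the SMART-seq v4 kit, which does not mark strand, and libraries were made with NexteraXT. The aligner was STAR and the genome mm10, per the submitters' processing notes. The sources used here do not state the counting tool, its treatment of shared reads, the annotation or any scaling between libraries. All 21 columns were mapped by name. Spreadsheet dates were restored to 16 gene symbols, and 11619 Entrez identifiers matched RefSeq (GRCm38.p6).

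Genes with at least 1 RPKM in at least 3 libraries were kept (11496; 132 removed), and log2(RPKM + 1) was fitted for the 6 groups with limma 3.58.1 (intensity trend, equal weights, R 4.3.3), with 15 residual degrees of freedom. Fold changes on this scale understate the change of low genes. P-values were adjusted by Benjamini-Hochberg over all genes kept, and called means an adjusted p under 0.05. Exact two-sided permutation tests over libraries were run for single genes between genotypes. The fit was tested on simulated data.

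The members, the gene lists and the tests were chosen with earlier results of these data known. All members were named. Of each list, up to 4 called genes with the smallest p were named, or, where none was called, the 2 most abundant, and for each member the 3 genes of highest Pearson correlation. A few genes that this rule names are not reported here. Further genes were named for contrast after their values were seen. Alternatives were the pseudocount, the filter, the scaling, library weights, replicate blocks, sex and age terms, only the groups compared, and leaving out each library. Leaving out the granule-rich libraries was added after the data were seen. Mutant libraries numbered 4 are labelled 10 weeks in CLP and 12 weeks in HSC and MPP4, and ages were left as labelled.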

Additional observations from a re-analysis of the deposited data

Results flagged for a closer look

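Cebpb in mutant MPP4 library 2 read 6.925 RPKM, while the other 3 mutant MPP4 libraries read 11.5 to 12.4 RPKM. It stands out because the gap to its nearest neighbour was 0.841 of the group's range, above Dixon's critical value at the 95% level for 4 libraries. It was the only such value among 27 groups of 4 (9 genes in the 3 mutant groups), and chance flags about 1 in 20 groups. The same library had the highest summed neutrophil granule genes of all, 2703 RPKM, and whether this bears on Cebpb was not tested.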

How the results depend on the processing

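Of 2337 single-gene values recomputed under alternatives, 2262 kept their direction and their side of the threshold or stayed uncalled, 31 became called, 44 were no longer called and 0 called values changed sign. In mutant against wild-type MPP4 the count of called genes was 0, and it was 1 (Csf1r) with library weights, with a sex term and with sex and age terms. In wild-type CLP against MPP4 the count was 3, and 5 with only the groups compared, which adds Cebpb and Cebpd. The causes were not tested. The other counts stayed within 1.5 times. Scaling moved the median of all genes in CLP against HSC from -0.10 to 0.02 (quantile) or 0.00 (median ratio).

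Replicate numbers were taken to pair libraries only if every same-numbered pair's deviations correlated above 0.1, which was not met. Same-numbered libraries of 1 population and different genotypes correlated at -0.15 to 0.45, over 0.1 in 5 of 9 pairs. Those of 1 genotype and different populations correlated at 0.094 to 0.48 (median 0.21), over 0.1 in 19 of 21 pairs, against a median of -0.096 and 7 of 54 for different numbers. With the replicate block the called counts were those of the unblocked fit, except 8 in wild-type CLP against HSC and 6 in mutant CLP against MPP4, with Csf2rb2 added in each. For Csf1r in MPP4 the adjusted p was 0.0546 with the number as a replicate block and 0.104 with the mouse as a random effect.

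Depth is unknown, so no counting interval can be given. The 3 or 4 libraries per group limit each comparison, and an exact test between genotypes cannot go below p = 0.0286.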

Other observations

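Eosinophil genes, which no comparison of the members uses, were uneven between libraries. Of the 7 in the table, 0 were called between genotypes in MPP4. In MPP4 against HSC, 4 of the 7 were called higher in the mutant, beside 16% of all genes. In wild type 0 were called higher there, beside 16.1% of all genes. The direct test, the difference of the mutant effect between MPP4 and HSC, called 0 of the 7, beside 0% of all genes. Prg2, the major basic protein gene, was 450 ± 630 RPKM in mutant MPP4 (SD, n = 4) and 60.4 ± 97.4 RPKM in wild type (n = 3), and Ear1 was 164 ± 229 and 18.4 ± 17.3 RPKM. The SDs exceeded or were close to the means.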
